A study of Arabidopsis thaliana with 32 samples.

Results

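The earliest response to activated LEAFY was read from the 4 two-colour arrays labelled 2 h, out of 32 arrays in a time course on Arabidopsis thaliana callus. Each 2 h array held RNA of callus kept for 2 h in a solution with dexamethasone and RNA of callus kept for 2 h in a control solution, so the comparison was made within every array. The other arrays did the same at 0, 4, 6, 8, 10, 12 and 22 h, with 4 arrays at each time. Both sides of every array, controls included, came from root explants of plants carrying 35S:LFY-GR, and no callus without the transgene and no inhibitor of protein synthesis is named in the labels. Effects of the steroid itself and of LFY-GR, or of LFY-GR and of the proteins made in answer to it, therefore cannot be told apart. The labels give no age for the tissue. The spotted cDNA clones, chosen to favour flower-specific transcripts, made up 10816 features, of which 10706 had at least 1 usable value in each dye orientation at 2 h and were tested.

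LEAFY is a plant transcription factor that commits a meristem to forming a flower and switches on floral organ identity genes. In LFY-GR it is joined to the steroid-binding domain of a mammalian glucocorticoid receptor, which keeps the protein in the cytoplasm until dexamethasone is added. The viral 35S promoter drives the fusion in most tissues, so that cells which do not normally make LEAFY hold it. A short treatment is the usual way to look for the first genes that such a factor moves, before slower steps of flower formation follow.

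The features bear plate positions as identifiers. No table used here pairs them with genes, and 0 of them matched the Arabidopsis gene table. The response is therefore described by groups of features, and 4 features are named. The labelled tissue could not be checked against marker genes for the same reason, and several features may hold clones of 1 transcript. Ratios are given as log2 of dexamethasone over control, so that 1 is 2-fold. That direction takes channel 2 as the numerator of the deposited ratio, the usual convention and so the likely one, although no source used here states it. If channel 1 was the numerator, every sign below turns round, and sizes and totals stay as given. Replicate 1 at 2 h and replicate 1 at 0 h, which had the same dye orientation, correlated at -0.31 over 10667 features. This value would be the same with every sign turned, so it cannot show which channel was the numerator. What it stands for was not tested. Most features strongly raised at later times lay above 0 on replicate 1 at 2 h, as on the other 2 h arrays.

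The 2 h arrays had 10710 to 10802 values each, against 10646 to 10809 on the other 28 arrays. Replicates 1 and 3 had dexamethasone RNA in channel 2 and replicates 2 and 4 in channel 1. Whether the 4 arrays came from separate cultures is not in the labels, and the p-values reflect array-to-array spread, part or all of which may be technical. Replicate 2 stood apart, as 333 of its features were at the upper limit of the deposited scale (a ratio of 100), against 4, 52 and 30 features on replicates 1, 3 and 4. The other 28 arrays had 0 to 476 such features. Limit values were treated as missing, and 245 of these 333 features had a value within the limits on replicate 4, the array of the same orientation.

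At 2 h, 33 of the 10706 features (0.308%) differed between dexamethasone and control callus, by limma on all 32 arrays with an adjusted p under 0.05. They split almost evenly, with 16 features higher (0.149%) and 17 lower (0.159%) in dexamethasone-treated callus. The higher features had fitted log2 ratios of 0.38 to 1.26 with a median of 0.70, and the lower ones of -1.87 to -0.40 with a median of -0.67. On each side 4 features had fitted ratios beyond 2-fold. The median over all tested features was 0.01, and 911 features (8.51%) had an unadjusted p under 0.05. In this bulk RNA, fewer cells of a type and less RNA per cell cannot be told apart. Fitting the 2 h arrays alone, with a dye term, called 0 features (limma, 1021 at an unadjusted p under 0.05), and scaling all arrays to equal spread called 97, 49 higher and 48 lower, with all 33 among them. With the sign turned the 33 features gave 17 higher and 16 lower.

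Called features were chosen on their 2 h values, which favours values of one sign for each feature. The 16 higher features had a value above 0 on all 4 arrays. Their median was 0.81 on replicate 1, 0.81 on replicate 2, 0.56 on replicate 3 and 0.67 on replicate 4. No array stood apart for this set. Of the 17 lower features, 15 had values on all 4 arrays and the other 2 on 2 arrays each, and every value present was below 0. Their median was -0.59 on replicate 1, -0.98 on replicate 2, -0.58 on replicate 3 and -0.62 on replicate 4. Replicate 2 held the value farthest from 0 for 10 of the 15 lower features with 4 values, against 6 of the 16 higher ones. The 2 most negative fitted ratios belonged to the 2 features with only 2 values, and both of these features also had a limit value at 2 h. Some deposited ratios recur exactly on an array: of the 306, 291, 163 and 196 values beyond 2-fold on replicates 1 to 4, 54, 60, 49 and 57 were shared by 2 or more features. Such a shared value beyond 2-fold entered 3 of the 17 lower features, GP032F2 and the 2 features with 2 values, and 0 of the 16 higher ones. The most frequent value beyond 2-fold was shared by 17 features, on replicate 1. Among the shared values beyond 2-fold that entered called features, the most frequent was -1.95 on replicate 1. It was shared by 9 features including 1 of the lower set. What the repeats stand for was not tested.

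**Figure D1:**
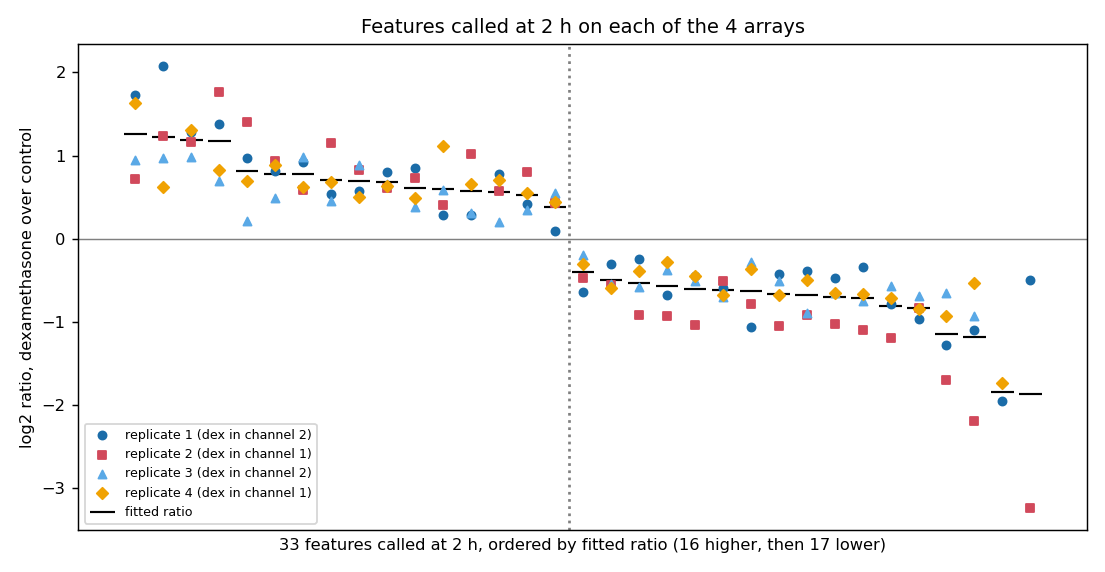
Log2 ratio of dexamethasone over control on the 4 arrays at 2 h (points, 1 symbol per array) and the fitted ratio (bar) for the 33 features called at 2 h, ordered by fitted ratio. All points of the 16 higher features lie above 0 and all points of the 17 lower features below 0, with replicate 2 most often the farthest point on the lower side. The features were chosen on these same values.

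The calls depended on replicate 2. Without that array 0 features passed in limma, and 488 had an unadjusted p under 0.05. The fitted ratios of the named features without it were 1.43 for GP096G7, 1.197 for GP000A3, -1.05 for GP064C7 and -0.82 for GP032F2, against 1.26, 1.23, -1.14 and -1.19 with it. Without replicate 1, 3 or 4 it called 24, 28 and 25 features, of which 14, 24 and 20 were among the 33. The side counts moved further, as the lower side held 10 features without replicate 1 and 11 without replicate 3, and the higher side held 10 without replicate 4. Averaging replicates in pairs (1 with 2, and 3 with 4), which treats each pair as a dye swap of 1 RNA, left 10 features called, 7 of them among the 33.

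Features called on 3 of the 2 h arrays were then read on the array that had been left out. Replicate 1, left out of the calling, showed 12 of 14 higher features above 0 with a median of 0.48, and 8 of 10 lower features below 0 with a median of -0.15, where the other arrays had given -0.77. Replicate 3 showed 16 of 17 higher features above 0 with a median of 0.45, and 8 of the 9 lower features it had values for below 0 with a median of -0.54. Replicate 4 showed 10 of 10 higher features above 0 with a median of 0.65, and 12 of 14 lower features below 0 with a median of -0.40. The direction thus recurred for most features on each array read, with smaller sizes than on the arrays that chose them. For replicate 2 no feature was called without it, so there was nothing to read.

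Among the called features, the largest positive ratio belonged to GP096G7, at 1.72, 0.72, 0.94 and 1.63 on replicates 1 to 4 at 2 h. All 4 values lay above the highest of its 0 h values, which ran from -0.33 to 0.20. The fitted ratio was 1.26 (SE 0.25, 95% interval 0.75 to 1.76, adjusted p = 0.0136), or 2.39-fold. It stayed near this size up to 8 h, with means of 1.27 ± 0.47, 1.13 ± 0.69 and 1.27 ± 0.32 at 4, 6 and 8 h, and stood at 2.47 ± 0.16, 1.84 ± 0.54 and 2.54 ± 0.82 at 10, 12 and 22 h (SD, n = 4 at each time). The 4 named features were chosen for extreme ratios at 2 h, which favours large fitted sizes and gaps from the 0 h values. For 2 h minus 0 h, the limma adjusted p was 0.438 for GP096G7, 0.716 for GP000A3, 0.178 for GP032F2 and 0.774 for GP064C7.

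GP000A3 was next among the called features, at 2.08, 1.23, 0.98 and 0.62 on replicates 1 to 4. Its lowest 2 h value was above its highest 0 h value, 0.40, and replicate 1 stood farthest from the other arrays. The fitted ratio was 1.23 (SE 0.23, 95% interval 0.75 to 1.70, adjusted p = 0.0101). Its later means were 1.47 ± 0.51, 1.46 ± 0.41, 1.75 ± 0.74, 1.88 ± 0.44, 1.75 ± 0.30 and 2.27 ± 0.43 at 4, 6, 8, 10, 12 and 22 h (SD, n = 4 at each time). Both named higher features were called higher at all 6 later times in a fit that held no 2 h array.

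On the lower side GP032F2 had the most negative ratio among called features with 4 values, at -1.10, -2.19, -0.93 and -0.53 on replicates 1 to 4. Replicate 2 was the farthest from 0, with a value that 3 features share exactly on that array, and the 4 values lay below the 0 h values of -0.02 to 0.42. The fitted ratio was -1.19 (SE 0.23, 95% interval -1.67 to -0.71, adjusted p = 0.0148). From 4 h on its means lay between -0.33 ± 0.64 (6 h) and -0.03 ± 0.78 (22 h; SD, n = 4), and it was called at 0 of the 6 later times. Its ratio at 2 h minus the mean of 4 to 22 h was -1.004 (SE 0.25), which did not pass over all features (limma adjusted p = 0.0619).

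GP064C7 stood at -1.28, -1.70, -0.65 and -0.94 on replicates 1 to 4, all below its 0 h values of -0.54 to 0.21. The fitted ratio was -1.14 (SE 0.25, 95% interval -1.65 to -0.63, adjusted p = 0.0355). Its means at the later times ran from -0.79 ± 0.65 at 8 h to -0.44 ± 0.41 at 4 h (SD, n = 4), and it too was called at 0 of the 6 later times. Its arrays parted widely there, as replicate 2 gave -1.71 and replicate 3 gave 0.17 at 22 h. From 6 h to 22 h replicate 2 lay between -1.75 and -1.33, and replicate 3 between -0.06 and 0.23. At 4 h the order was the reverse, with -0.29 on replicate 2 and -0.77 on replicate 3. The call at 2 h was lost in 8 of 16 alternative settings, against 5 or 6 of 16 for the other named features.

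**Figure D2:**
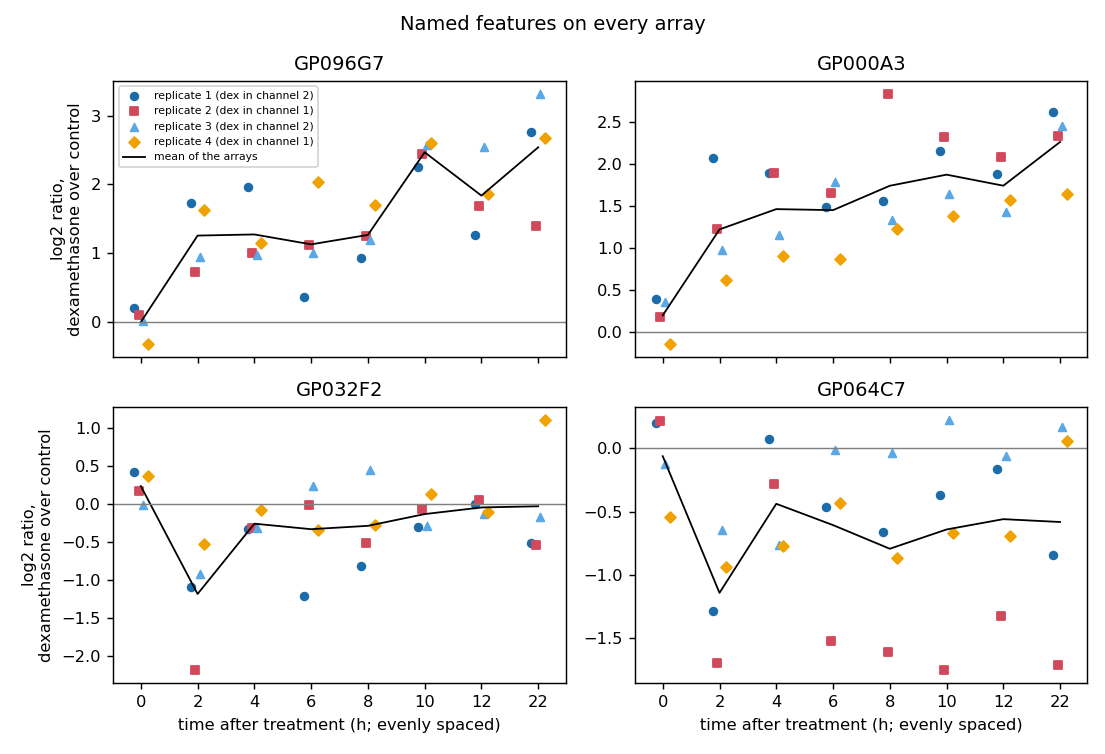
Log2 ratio of dexamethasone over control on every array (points) and the mean per time (line) for the 4 named features, at 0 to 22 h. At 2 h the points of GP096G7 and GP000A3 lie between 0.62 and 2.08 and those of GP032F2 and GP064C7 between -2.19 and -0.53, and the higher pair stays above 0 on every array from 2 h on.

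Both sets were then followed through the other times. In a fit without the 2 h arrays, 15 of the 16 higher features were called higher at all 6 later times, where 0.458% of all tested features were. The calls at 2 h used a spread estimated partly on the later arrays, so the later calls are not fully independent of them. The remaining one was called higher at 4 of them, and 5.25% of all features were called higher at 1 or more. Of the 17 lower features, 4 were called lower at all 6 later times (0.056% of all features were), 8 at 1 to 5 of them and 5 at none, where 3.05% of all features were called lower at 1 or more. No feature of either side was called on the opposite side. At 4 h alone, 15 of 16 higher features (93.8%) and 10 of 17 lower features (58.8%) were called on their own side, where the shares over all features were 0.857% and 0.68%. Of the higher features 15 were called at 6 h and 16 at each of 8, 10, 12 and 22 h, where the shares over all features were 1.83%, 2.23%, 2.13%, 2.2% and 4.04%. Of the lower features 8, 7, 10, 7 and 6 were called at 6, 8, 10, 12 and 22 h, where the shares were 0.856%, 0.795%, 0.923%, 0.456% and 1.37%. Of the 17 lower features, 16 had a fitted value at 6, 8, 10 and 22 h. The difference between the 2 sides was not tested.

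Set medians show the same course. For the higher features the median per array averaged 0.02 ± 0.04, 0.72 ± 0.12, 0.89 ± 0.12 and 0.99 ± 0.12 at 0, 2, 4 and 6 h, and 0.997 ± 0.24, 1.02 ± 0.16, 1.01 ± 0.04 and 1.08 ± 0.13 at 8, 10, 12 and 22 h (SD, n = 4 arrays). For the lower features it averaged 0.09 ± 0.08, -0.69 ± 0.19, -0.50 ± 0.06 and -0.43 ± 0.09 at 0, 2, 4 and 6 h, and -0.43 ± 0.15, -0.46 ± 0.13, -0.44 ± 0.19 and -0.37 ± 0.13 at 8, 10, 12 and 22 h. The higher set thus ended farther from 0 than at 2 h, and the lower set nearer. Feature by feature, 16 of 16 higher features were larger at 22 h than at 2 h, and 0 of them had their largest value at 2 h. Differences between 22 h and 2 h were not tested, and 1 higher feature stood at 1.186 at 2 h and 1.194 at 22 h. Of the 16 lower features with a 22 h value, 3 were farther from 0 at 22 h than at 2 h, and 7 of 17 were farthest from 0 at 2 h. Both sets were chosen on their 2 h values, which favours large sizes at that time.

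**Figure D3:**
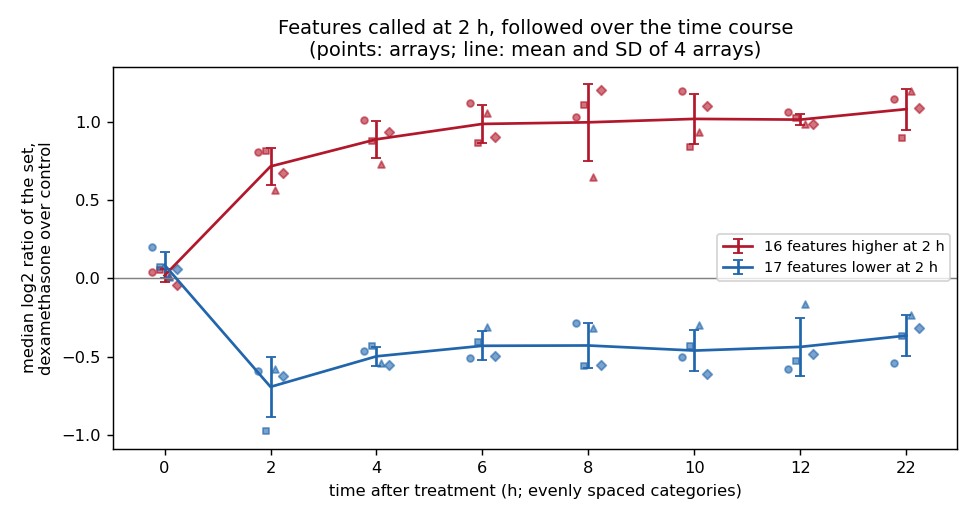
Median log2 ratio per array (points) of the 16 features higher and the 17 features lower at 2 h, with the mean and SD of the 4 arrays (line and bars), at 0 to 22 h. The higher set stands at 0.72 at 2 h and 1.08 at 22 h, and the lower set at -0.69 at 2 h and -0.37 at 22 h.

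The 2 h arrays were also read on features chosen without them. On the 24 arrays of 4 to 22 h, limma called 883 of 10617 features higher (8.32%) and 703 lower (6.62%) for the mean of those times. At 2 h the median of the 883 was 0.19, 0.06, 0.08 and 0.10 on replicates 1 to 4, a mean of 0.11 ± 0.06, against 0.01 ± 0.06 at 0 h (SD, n = 4 arrays). It was above 0 on all 4 arrays at 2 h, and the highest 0 h array, at 0.06, came within the 2 h range. The median of the 703 lower features was -0.10, -0.26, -0.20 and -0.18 on replicates 1 to 4, a mean of -0.18 ± 0.07, against -0.02 ± 0.02 at 0 h. Here the 2 h and 0 h arrays did not overlap, as the lowest 0 h array stood at -0.05. By 4 h the means were 0.24 ± 0.07 and -0.27 ± 0.02. The median of all features lay between -0.02 and 0.05 on the 2 h arrays.

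Among the 883 features, 69 were more than 2-fold higher over 4 to 22 h, and their median lay above 0 on every 2 h array. Their median was 0.61, 0.51, 0.41 and 0.62 on replicates 1 to 4 at 2 h, with 94.2%, 94.1%, 84.1% and 87% of the features above 0. The mean of these medians was 0.54 ± 0.10, against -0.04 ± 0.03 at 0 h, and the arrays of the 2 times did not overlap. It was 0.82 ± 0.07 at 4 h and 2.45 ± 0.46 at 22 h (SD, n = 4 arrays). Without replicate 2 the 2 h mean was 0.55. Of the 69 features, 46 were above 0 on all 4 arrays at 2 h, 19 had a 2 h ratio above 1, and 8 were among the 16 called. Values on all 4 arrays were present for 68 of them. Of all features with 4 values at 2 h, 1021 of 10368 were above 0 on all 4 arrays. Of all tested features, 0.149% were called higher. Their lower and upper quartiles were 0.25 and 1.03 at 2 h, and they ranged from -0.03 to 1.38. These 69 features came from 46 plates, and plate 1 held 6 of them.

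**Figure D4:**
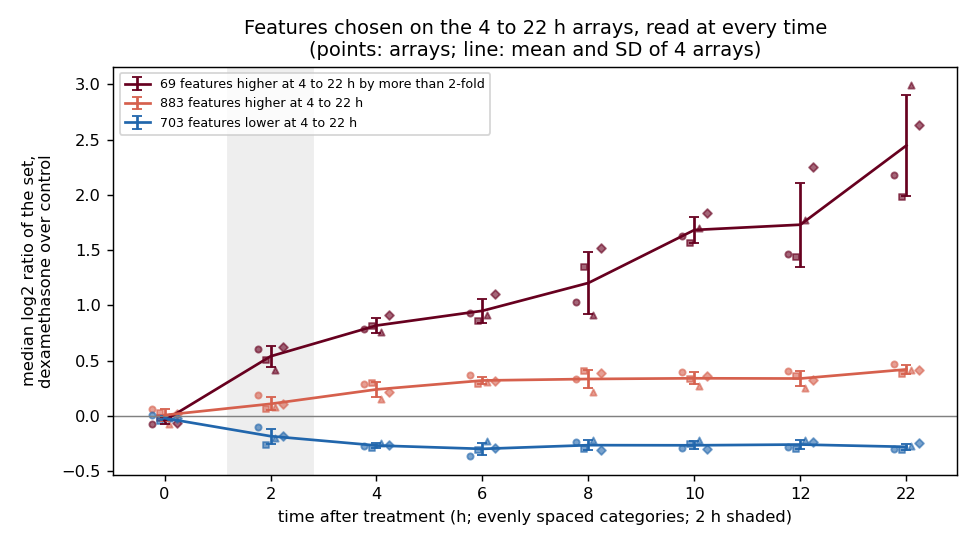
Median log2 ratio per array (points) of 3 feature sets chosen on the 4 to 22 h arrays alone, with the mean and SD of the 4 arrays (line and bars), at every time; 2 h is shaded. At 2 h the 69 strongly raised features stand at 0.54, the 883 raised features at 0.11 and the 703 lowered features at -0.18.

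Against the 0 h arrays, which carry the background measured the same way, no single feature passed. For the ratio at 2 h minus the ratio at 0 h, limma called 0 of 10669 features (0%), with 457 (4.28%) at an unadjusted p under 0.05 and a smallest adjusted p of 0.0598. All 33 features called at 2 h were among those 457, with median differences of 0.72 for the higher and -0.76 for the lower side. The 33 were chosen on the same 2 h values, which favours this overlap, so it is no separate evidence. This difference has a median SE of 0.19, against 0.13 for the 2 h ratio alone, since it carries the error of both times. With the arrays scaled to equal spread it called 15 features. For the ratio at 2 h minus the ratio at 4 h 0 of 10675 features (0%) passed in limma, and 512 (4.8%) had an unadjusted p under 0.05.

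Set against the mean of 4 to 22 h, the 2 h ratio differed for 78 of 10597 features (0.736%). In 75 of these (0.708%) the 2 h ratio was below the later mean, and in 3 (0.0283%) above it. The 75 features had a median ratio of 0.08 at 2 h and 0.90 over 4 to 22 h, and 29 of them differed by more than 2-fold. They were chosen for this difference, which favours low ratios at 2 h and high ratios later. For 74 of the 75 the later mean was positive. Per array their median at 2 h was 0.14, -0.06, 0.12 and 0.11 on replicates 1 to 4, so that replicate 2 alone lay below 0. The mean of these medians was 0.02 ± 0.05, 0.08 ± 0.09, 0.30 ± 0.10 and 0.70 ± 0.11 at 0, 2, 4 and 6 h, and 0.83 ± 0.23, 1.02 ± 0.04, 1.06 ± 0.13 and 1.79 ± 0.23 at 8, 10, 12 and 22 h (SD, n = 4 arrays). At 2 h, 15 of the 75 were above 0 and 4 below 0 on all 4 arrays. Of all 10368 features with 4 values at 2 h, 1021 were above 0 and 768 below 0 on all 4. Of the 75, 2 were also called at 2 h, 1 from each side, where 0.308% of all tested features were called at 2 h. With the 22 h arrays left out of the later mean 37 features were called, all among the 78, and without replicate 2 at 2 h 35 were called.

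For the 16 higher features the 2 h ratio minus the later mean had a median of -0.27, and 1 of them passed the test of that difference. For the 16 lower features that could be tested the median was -0.19, and 1 passed. Of all features tested for that difference, 0.736% passed.

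**Figure D5:**
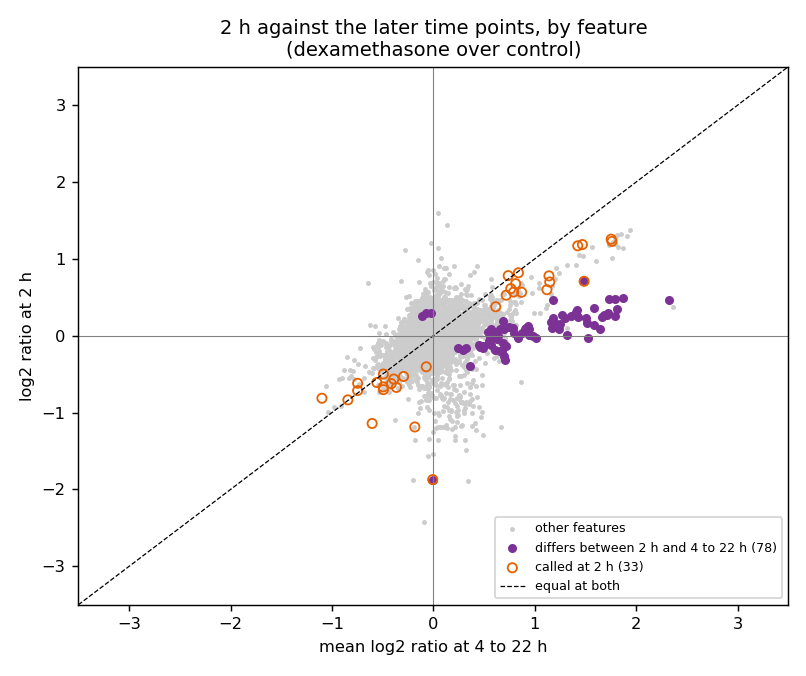
Fitted log2 ratio at 2 h (vertical axis) against the mean log2 ratio at 4 to 22 h (horizontal axis) for each feature with both values; 1 of the 33 features called at 2 h lacks a later mean and is not drawn. Most of the 78 features that differ between these times (filled) lie right of 0 and below the line of equal ratios, and the 16 features called higher at 2 h (rings) have a median of -0.27 for 2 h minus the later mean.

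Correlations between the 2 h arrays over all features with both values were low. Replicates 2 and 4, with the same orientation, correlated at 0.28 (Pearson; Spearman 0.49, 10442 features), while replicates 1 and 3, the other pair of one orientation, stood at 0.02. Pairs of opposite orientation ran from -0.08 to 0.08. At 22 h the opposite pairs ran from 0.18 to 0.39 and at 0 h from -0.29 to -0.03. These are descriptions over features, which share arrays and dyes. In direction, 1789 of 10368 features with 4 values at 2 h (17.3%) had the same sign relative to dexamethasone on all 4 arrays, and 1788 (17.2%) the same sign relative to the channel. At 0 h these shares were 8.06% and 25.8%.

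Among larger ratios the counts were lower. At 2 h, 24 features were above 0.5 and 7 below -0.5 on all 4 arrays relative to dexamethasone, against 0 and 1 at 0 h. Relative to the channel, 0 and 5 features passed the same bounds at 2 h, against 1 and 13 at 0 h. Of the 24, 7 were among the 16 called higher, and of the 7, 5 were among the 17 called lower. Over all tested features 0.149% were called higher and 0.159% lower. The bounds and the calls use the same 2 h values, which favours this overlap, so it is no separate evidence. The other 17 features above 0.5 on every 2 h array did not pass the test.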

How the data were processed

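The deposited values are log10 ratios of the 2 channels, 1 per feature and array, made by the authors with Rosetta Resolver, per the labels. The log10 scale was inferred from the values, which end at exactly -2 and 2. How background was corrected, how values were normalized, which dyes were used and which channel was the numerator is not given in the sources used here. Precision is limited by the number of arrays, 4 at each time. Values were turned into log2 ratios, the sign of replicates 2 and 4 was reversed, and values at a limit were set to missing.

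limma 3.58.1 in R 4.3.3 (lmFit, eBayes) was fitted to all 32 arrays with a term for each time point and, for each feature, a dye term. Tests were two-sided with Benjamini-Hochberg adjustment over all features tested, at 0.05. Each difference between times was fitted as a coefficient, because values were missing. Features needed 1 value per orientation at the times compared. The fit was tested on simulated data. Time means "over 4 to 22 h" give both orientations equal weight. The 2 largest ratios each way among features past the threshold with 4 values of one sign were named. Planned gene lists could not be used, for want of gene names. Members, lists and tests were chosen with earlier results of these data known.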

Additional observations from a re-analysis of the deposited data

Results flagged for a closer look

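Dixon's criterion for a single distant value was applied to 61 groups of 4 arrays and met in 5, where about 1 in 20 would meet it by chance. Replicate 2 at 2 h accounted for 3 of them. It had 333 features at the upper limit, it held the lowest median of the 17 lower features, -0.98, and the lowest 2 h median of the 75 features whose ratio was below the later mean, -0.0599. The part of the limit values in the other 2 results was not tested. The remaining values were 1.97 for GP096G7 on replicate 1 at 4 h, above the other 3 arrays, and -0.0767 for GP032F2 on replicate 4 at 4 h, also above the others. By the test of the difference itself, 78 features had unequal ratios at 2 h and over 4 to 22 h.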

How the results depend on the processing

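The cause of the changes below was not tested. No count at 2 h moved by over 1.5 times with limit values kept, no dye term, arrays centred, a robust variance or other demands on the number of 2 h values. Fitting the 2 h arrays alone, with or without a dye term, gave 0 features in all, 0 higher and 0 lower (1021 and 805 at an unadjusted p under 0.05, limma). Averaging replicates 1 and 2, and 3 and 4, gave 10 features, 6 higher and 4 lower, and 33 for 2 h minus the mean of 4 to 22 h. At an adjusted p under 0.01 these counts were 10, 8, 2 and 36. Scaled arrays gave 97, 49 higher and 48 lower, and 15 for 2 h minus 0 h. The replicate block gave 112 features, 61 higher and 51 lower, 13 for 2 h minus 0 h and 136 for 2 h minus the later mean; of 28 residual correlations between same-numbered arrays of 2 h and another time, 8 were over 0.1, so the numbers were not taken to pair the arrays. The mean of 4 to 12 h, chosen after seeing the data, gave 37. Leaving out each 2 h replicate gave 0 to 28 features, 0 to 17 higher and 0 to 15 lower, 0 to 2 for 2 h minus 0 h, 35 to 60 for 2 h minus the later mean, and medians of 0.08 to 0.12 and -0.21 to -0.16 for the features higher and lower at 4 to 22 h. With the sign turned those medians exchange, to 0.18 and -0.11, the strongly raised set becomes 3 features at 0.71, and GP096G7, GP000A3, GP032F2 and GP064C7 stand at -1.26, -1.23, 1.19 and 1.14.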

Other observations

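The 3 features whose 2 h ratio lay above the later mean were small and positive at 2 h, with ratios of 0.25 to 0.29, and each was above 0 on all 4 arrays. Their median per array averaged 0.33 ± 0.13 at 2 h, against 0.09 ± 0.06 at 0 h, -0.03 ± 0.06 at 4 h and -0.17 ± 0.08 at 22 h (SD, n = 4 arrays). The 3 were chosen for a 2 h ratio above the later mean, which favours such a course. None of them was called at 2 h, and they came from 3 plates.

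Single 2 h arrays related differently to the other times. Across features, replicate 1 correlated at -0.31 with the mean of the 0 h arrays and at -0.23 with that of the 4 h arrays, where replicates 2, 3 and 4 stood at 0.09, 0.17 and 0.11 with 0 h and at 0.15, 0.20 and 0.35 with 4 h. From 8 h on replicate 1 was positive as well, at 0.12 to 0.19 (all Pearson). By Spearman, replicate 1 stood at -0.14 with 0 h and at 0.01 with 4 h, so its negative relation to 4 h depends on the measure. These are descriptions with no test. Without replicate 1 the 2 h ratio was called for 24 features.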
